A study of Homo sapiens with 9 samples.

Results

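FTH1, FTL, TFRC, SLC40A1, SLC39A14, HMOX1, NCOA4, IREB2, GPX4 and ACSL4 are 10 genes of iron handling and ferroptosis, taken by gene symbol from the 60612 genes of the deposited table. Their RNA was measured in HSC-3, an oral squamous carcinoma line, in 9 messenger RNA libraries. The groups are WT, the parental line, MPTN24, taken here as the line after 24 h with apatinib, and MPTN, taken as the apatinib-resistant line, with 3 libraries each. The labels spell out neither MPTN24 nor MPTN, so both meanings are inferred, and whether MPTN was harvested with the drug is not stated. Apatinib inhibits the VEGF receptor KDR. All groups come from the same line, MPTN is taken as a line selected in culture, and no source says whether replicates were separate cultures. The p-values therefore measure only the spread between these samples, which may be technical.

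Cells take up iron from transferrin through the transferrin receptor, store it in ferritin shells of heavy and light chains, and release it again when the receptor NCOA4 carries ferritin to the lysosome. Iron regulatory proteins bind hairpins called iron responsive elements in messenger RNA when iron is scarce. Binding at the 5′ end blocks translation of ferritin, and binding at the 3′ end protects the transferrin receptor message from decay. Ferroptosis is a form of cell death driven by iron-dependent peroxidation of membrane lipids, which GPX4 opposes and to which ACSL4 supplies substrates.

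The iron responsive elements are shown because they are the known points of contact between iron regulatory proteins and the messages of ferritin and the transferrin receptor. They were searched in GENCODE 29 transcripts (GRCh38) as a C, 5 bases, the loop CAGTGN and 5 bases pairing with the first 5, G with U allowed. With 6 flanking bases on each side each element covers 29 bases, with the loop in capitals. Of the 10 genes, 4 held a match, namely FTH1, FTL, TFRC and SLC40A1. Of 19702 protein-coding genes, 36 (0.183%) held one in a 5′ UTR and 132 (0.67%) in a 3′ UTR. In FTH1 the match stood in the 5′ UTR of 7 of 8 coding transcripts (chr11:61967574-61967602, minus strand) and in FTL in that of its 1 coding transcript (chr19:48965335-48965363, plus strand).
FTH1 5′ UTR: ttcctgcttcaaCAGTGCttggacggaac
FTL 5′ UTR: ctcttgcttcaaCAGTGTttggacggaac
In TFRC 4 matches stood in the 3′ UTR of 3 of 4 coding transcripts (chromosome 3, minus strand). They are given from the highest coordinate to the lowest, at chr3:196050979-196051007, chr3:196050575-196050603, chr3:196050510-196050538 and chr3:196050463-196050491. Elements that depart from the searched pattern would be missed, and the letters a to d only follow this order.
TFRC 3′ UTR, element a: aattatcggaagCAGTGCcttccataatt
TFRC 3′ UTR, element b: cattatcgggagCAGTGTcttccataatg
TFRC 3′ UTR, element c: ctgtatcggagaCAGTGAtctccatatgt
TFRC 3′ UTR, element d: aattatcgggaaCAGTGTttcccataatt
In SLC40A1 the match stood in the 5′ UTR of 1 of 5 coding transcripts (chr2:189580661-189580689, minus strand).
SLC40A1 5′ UTR: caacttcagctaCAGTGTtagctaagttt

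Library totals were 60383313 to 98890929 estimated counts, and 16990 genes, all 10 members among them, had enough counts to be tested. Levels are given as TMM-normalised CPM, the counts scaled to the same library size. Changes are log2 differences ± standard error from the quasi-likelihood test of edgeR, and adjusted p is by Benjamini-Hochberg over all tested genes. All 6 squamous epithelial markers were present, KRT5 at 4710 to 7620 CPM, and all 4 leukocyte markers had 0 counts in every library. Summed macrophage markers ran from 61.4 to 82.2 CPM in WT, 103 to 118 CPM in MPTN24 and 73 to 79.8 CPM in MPTN, of which CD68 made up nearly all, with CD163 at 0. Erythroid markers were at 0 except HBB, at 0.122 CPM in 1 library. WT 1 stood apart in its mitochondrial transcripts, at 4.74% of counts where WT 2 had 2.72% and WT 3 had 3.02%. MPTN24 libraries had 5.04% to 5.73% and MPTN libraries 4.66% to 5.13%. The part of these differences in the results below was not tested, and in bulk RNA fewer cells with a transcript and less RNA per cell cannot be told apart.

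In MPTN both ferritin chains, HMOX1 and GPX4 were higher than in WT, while TFRC, IREB2 and NCOA4 were lower. In MPTN24 the ferritin chains, HMOX1 and GPX4 did not pass the test against WT, and TFRC and IREB2 were lower. Between MPTN24 and WT, 0 of the 10 genes were called higher and 2 lower at an adjusted p below 0.05, where 11.1% of all tested genes were higher and 12.1% lower, 23.2% in all. Between MPTN and WT 4 were higher and 3 lower, against 18.3% and 18.1% of tested genes, 36.4% in all. Between MPTN and MPTN24 3 were higher and 0 lower, against 7.85% and 6.7%, 14.5% in all. The median log2 change of the 10 was -0.14, 0.06 and 0.19 in these comparisons, beside 0.01, 0.02 and 0.01 over all tested genes. Both comparisons with WT share the WT libraries, so their values stand side by side and are not independent. Of all calls between MPTN24 and WT 47.9% were rises, a share that was 59.3% with upper-quartile scaling and 65.5% with a limma fit to log2(FPKM + 0.1). The latter setting gave 66.4% in place of 50.4% between MPTN and WT, and 67.8% in place of 54% between MPTN and MPTN24.

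**Figure D1:**
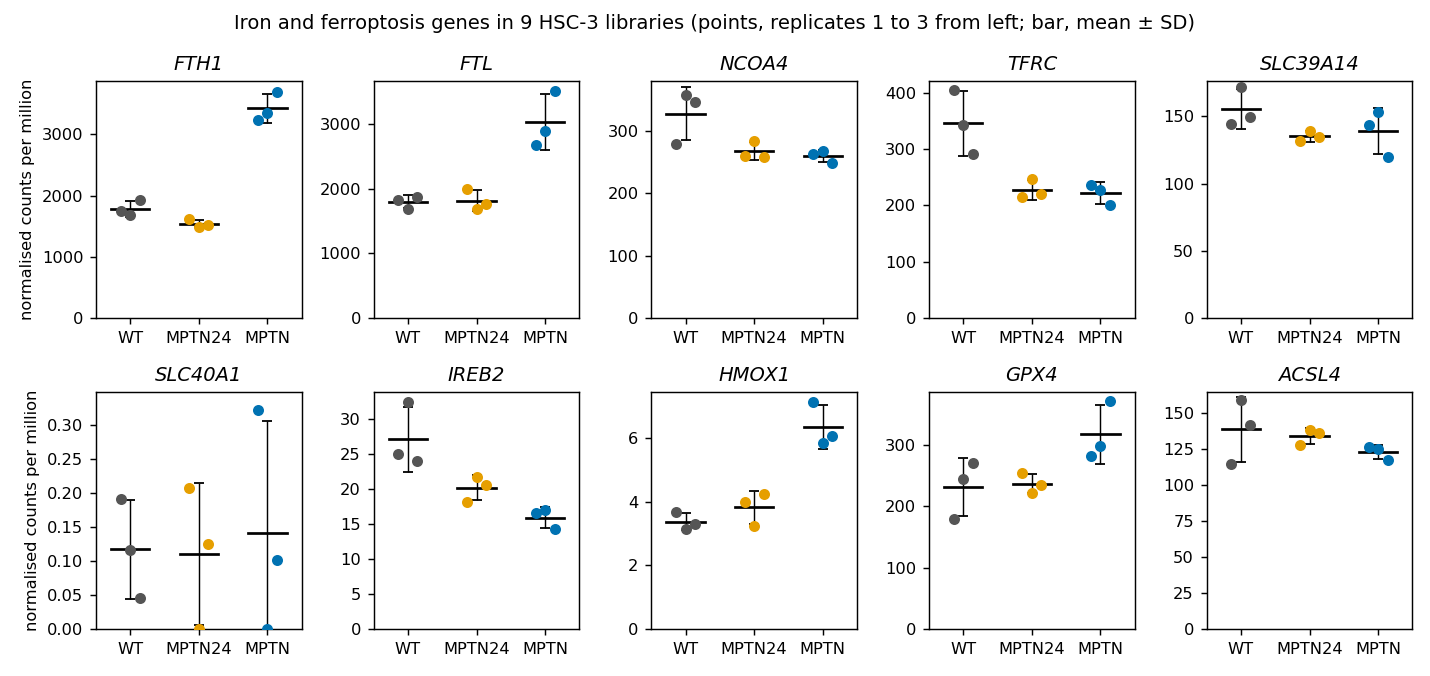
Normalised CPM of the 10 genes (vertical axis, from 0) in the 9 libraries by group (horizontal axis), with points for replicates 1 to 3 from left to right and bars for mean ± SD. The MPTN points of FTH1, FTL, HMOX1 and GPX4 lie above all WT points, and those of TFRC, IREB2 and NCOA4 lie below them.

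FTH1 (ENSG00000167996, chromosome 11, 61959718 to 61967634) encodes the ferritin heavy chain, which oxidises iron for storage. Its level was 1742, 1680 and 1927 CPM in WT 1 to 3, 1614, 1495 and 1523 CPM in MPTN24, and 3234, 3347 and 3690 CPM in MPTN. The 3 groups did not overlap, with MPTN24 lowest and MPTN highest. FTH1 was 1.92-fold higher in MPTN than in WT (log2 change 0.94 ± 0.10, edgeR adjusted p = 1.09e-05) and 2.22-fold higher than in MPTN24 (1.15 ± 0.10, edgeR adjusted p = 6.72e-06). The difference between MPTN24 and WT, -0.21 on the log2 scale, did not pass (edgeR adjusted p = 0.147; 95% interval -0.42 to 0.00).

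FTL (ENSG00000087086, chromosome 19, 48965309 to 48966879) encodes the light chain, which aids the formation of the iron core. It was at 1826, 1689 and 1877 CPM in WT, 1994, 1679 and 1768 CPM in MPTN24, and 2674, 2883 and 3510 CPM in MPTN. WT and MPTN24 overlapped, and every MPTN library lay above both. FTL was 1.68-fold higher in MPTN than in WT (0.75 ± 0.12, edgeR adjusted p = 0.000233) and 1.67-fold higher than in MPTN24 (0.74 ± 0.12, edgeR adjusted p = 0.00103). With offsets for GC content and length the first of these was 0.50. Between MPTN24 and WT the estimate was 0.01 (95% interval -0.24 to 0.26, edgeR adjusted p = 0.955).

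The ferritin chains together took 0.338% to 0.377% of all counts in WT, 0.319% to 0.346% in MPTN24 and 0.623% to 0.717% in MPTN. By count FTH1 was the 42nd to 57th gene of a library in WT, the 66th in each MPTN24 library and the 15th to 17th in MPTN. FTL stood at place 44 to 51, 52 to 56 and 18 to 21. Annotated copies of the ferritin genes, which could share reads with them, were assigned few counts. How many shared reads were assigned to the parent genes was not tested. The 24 annotated FTH1 pseudogenes, 15 of them with counts, held 0.115% to 0.189% of the counts of FTH1 and its copies, and the 16 FTL pseudogenes 0.00999% to 0.0444%. The gene BEST1 overlaps FTH1 on the opposite strand, and as the kit does not mark strand their reads cannot be told apart there. BEST1 had at most 0.464% of the counts of FTH1.

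NCOA4 (ENSG00000266412, chromosome 10, 46005088 to 46030714) encodes the receptor that delivers ferritin to autophagosomes. It was at 279, 359 and 346 CPM in WT, 261, 284 and 258 CPM in MPTN24, and 263, 269 and 250 CPM in MPTN. All MPTN libraries lay below WT, of which WT 1 was the lowest, and MPTN24 overlapped WT. NCOA4 was 1.26-fold lower in MPTN than in WT (-0.33 ± 0.10, edgeR adjusted p = 0.0212). This call was lost in 8 of 21 alternatives, among them without WT 2 (-0.27, edgeR adjusted p = 0.0947), WT 3 (-0.29, 0.0739), MPTN 1 (-0.34, 0.0506) or MPTN 3 (-0.30, 0.0595), with upper-quartile scaling (-0.27, 0.0563), with limma (-0.21, 0.206) and with offsets for GC content and length (-0.19, 0.0539). The difference between MPTN24 and WT was -0.29 ± 0.10 (edgeR adjusted p = 0.0548), and it passed in 4 alternatives. These were without WT 1 (-0.40, edgeR adjusted p = 0.00369) and without MPTN 3 (-0.29, edgeR adjusted p = 0.0486). The others were DESeq2 (-0.30, DESeq2 adjusted p = 0.0228) and the replicate number as a block (-0.29, edgeR adjusted p = 0.0499).

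TFRC (ENSG00000072274, chromosome 3, 196027183 to 196082096) encodes the transferrin receptor and carries the 3′ UTR elements printed above. It was at 404, 342 and 290 CPM in WT, 214, 247 and 220 CPM in MPTN24, and 237, 228 and 200.0 CPM in MPTN. Every MPTN24 and MPTN library lay below every WT library, and MPTN24 and MPTN overlapped. TFRC was 1.52-fold lower in MPTN24 than in WT (-0.61 ± 0.12, edgeR adjusted p = 0.00339) and 1.56-fold lower in MPTN (-0.64 ± 0.12, edgeR adjusted p = 0.000952). The 2 changes passed in all 21 alternatives tried. WT 1 held the highest value, and without it they were -0.48 and -0.51. MPTN and MPTN24 differed by -0.03 (95% interval -0.29 to 0.22, edgeR adjusted p = 0.896).

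SLC39A14 (ENSG00000104635, chromosome 8, 22367249 to 22434129) encodes ZIP14, an importer of iron not bound to transferrin and of other metals. Its level was 145, 172 and 150 CPM in WT, 132, 139 and 135 CPM in MPTN24 and 143, 154 and 120 CPM in MPTN. MPTN24 lay below WT without overlap, and MPTN overlapped both. None of the 3 differences passed, with log2 estimates of -0.20, -0.16 and 0.04 and edgeR adjusted p of 0.19, 0.261 and 0.851 for MPTN24 against WT, MPTN against WT and MPTN against MPTN24. The 95% intervals ran from -0.43 to 0.03, from -0.39 to 0.07 and from -0.19 to 0.27.

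SLC40A1 (ENSG00000138449, chromosome 2, 189560590 to 189583758) encodes ferroportin, the known exporter of iron from cells, and was at the limit of detection. The libraries of WT had 12, 8 and 4 estimated counts, those of MPTN24 12, 0 and 8, and those of MPTN 24, 0 and 10. In these data 1 read pair may often have given 4 counts. The groups overlapped widely, and a difference was not detectable at this depth. The 95% interval of the log2 difference between MPTN and WT ran from -2.56 to 3.11, and that between MPTN24 and WT from -2.98 to 2.83.

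IREB2 (ENSG00000136381, chromosome 15, 78437431 to 78501453) encodes IRP2, one of the iron regulatory proteins. It was at 24.9, 32.4 and 23.9 CPM in WT, 18.1, 21.7 and 20.5 CPM in MPTN24, and 16.5, 17 and 14.2 CPM in MPTN. The 3 groups did not overlap, with WT highest and MPTN lowest. IREB2 was 1.7-fold lower in MPTN than in WT (-0.77 ± 0.14, edgeR adjusted p = 0.000611), a call kept in all 21 alternatives, with estimates from -0.85 to -0.50; the smallest came from limma on log2(FPKM + 1), which understates changes of low genes. The fall in MPTN24 was 1.34-fold (-0.43 ± 0.14, edgeR adjusted p = 0.0361), and 10 of 21 alternatives lost it. It was lost without WT 2 (-0.28, edgeR adjusted p = 0.172), MPTN24 1 (-0.36, 0.148), MPTN24 2 (-0.46, 0.0572), MPTN24 3 (-0.44, 0.0905) or MPTN 2 (-0.43, 0.0513), and with offsets for GC content and length (-0.14, 0.314). The other settings that lost it were upper-quartile scaling (edgeR adjusted p = 0.057), a fit of only these groups (0.0521) and limma (0.137 and 0.123). The difference between MPTN and MPTN24 was -0.34 (edgeR adjusted p = 0.113), and it passed in a fit of only these groups (-0.34, edgeR adjusted p = 0.0491) and with offsets for GC content and length (-0.40, edgeR adjusted p = 0.0078).

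HMOX1 (ENSG00000100292, chromosome 22, 35380361 to 35394207) encodes the inducible heme oxygenase, which opens the heme ring and frees its iron. It was at 3.68, 3.16 and 3.30 CPM in WT, 3.99, 3.25 and 4.25 CPM in MPTN24, and 7.15, 5.84 and 6.08 CPM in MPTN. WT and MPTN24 overlapped, and all MPTN libraries lay above both. HMOX1 was 1.88-fold higher in MPTN than in WT (0.91 ± 0.18, edgeR adjusted p = 0.00142) and 1.66-fold higher than in MPTN24 (0.73 ± 0.18, edgeR adjusted p = 0.0152). The second call was lost without MPTN24 2 (0.60, edgeR adjusted p = 0.0751) or MPTN 1 (0.64, edgeR adjusted p = 0.0741). Between MPTN24 and WT the difference was 0.18 (edgeR adjusted p = 0.528).

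GPX4 (ENSG00000167468, chromosome 19, 1103926 to 1106791) encodes the selenoenzyme that reduces phospholipid hydroperoxides with glutathione. It was at 179, 245 and 270 CPM in WT, 253, 222 and 235 CPM in MPTN24, and 282, 298 and 371 CPM in MPTN. MPTN24 lay within the range of WT, whose lowest value was that of WT 1, and the MPTN libraries lay above both. GPX4 was 1.37-fold higher in MPTN than in WT (0.45 ± 0.14, edgeR adjusted p = 0.0224). The call was lost without WT 1 (0.30, edgeR adjusted p = 0.0587) or MPTN 3 (0.33, 0.108), in a fit of only these groups (0.44, 0.0518) and with offsets for GC content and length (0.12, 0.413). The difference between MPTN and MPTN24 was 0.42 ± 0.14 (edgeR adjusted p = 0.0642), and it passed in 7 alternatives, among them without WT 1 (0.42, edgeR adjusted p = 0.0114). MPTN24 and WT differed by 0.03 (95% interval -0.27 to 0.34).

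ACSL4 (ENSG00000068366, chromosome X, 109624244 to 109733403) encodes the acyl-CoA synthetase that prepares arachidonic and adrenic acid for membrane phospholipids. It was at 115, 159 and 142 CPM in WT, 128, 138 and 137 CPM in MPTN24, and 126, 125 and 118 CPM in MPTN. The WT range covered that of both other groups, and MPTN lay just below MPTN24. The differences were -0.05, -0.17 and -0.12 for MPTN24 against WT, MPTN against WT and MPTN against MPTN24, and none passed (edgeR adjusted p = 0.806, 0.25 and 0.518). Without WT 1, the lowest WT library, the difference between MPTN and WT passed (-0.29, edgeR adjusted p = 0.0173). With offsets for GC content and length, ACSL4 was higher in MPTN24 than in WT (0.26, edgeR adjusted p = 0.0186), the opposite direction, and lower in MPTN than in MPTN24 (-0.21, edgeR adjusted p = 0.0468). KCNE5, which overlaps ACSL4 on the same strand, had at most 0.704% of the counts of ACSL4.

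**Figure D2:**
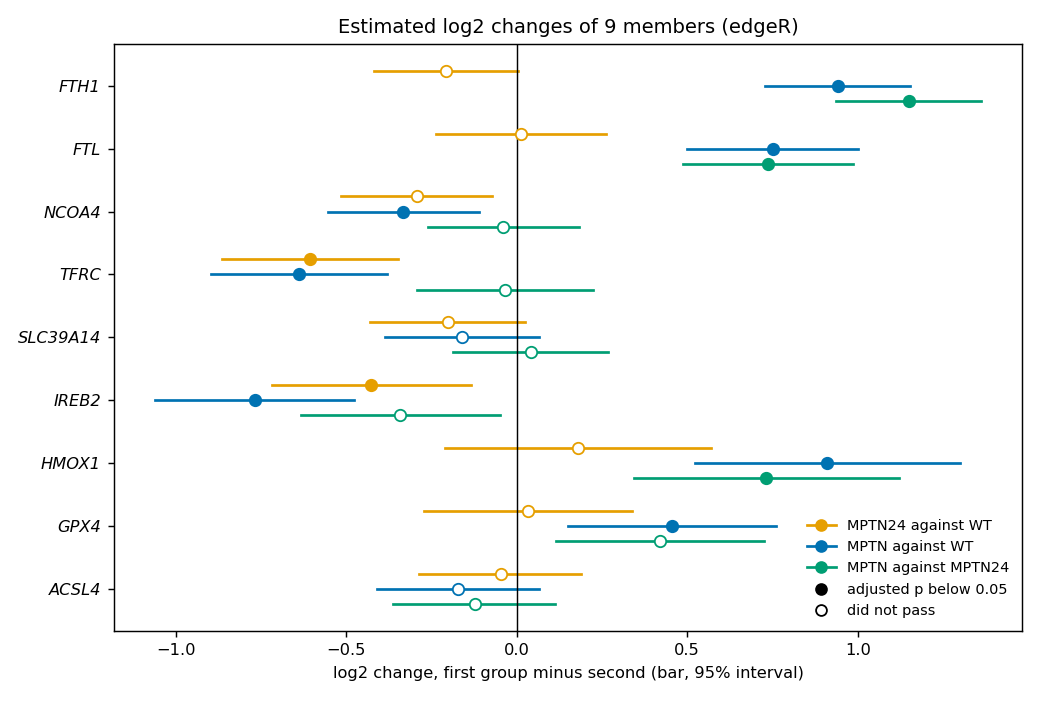
Estimated log2 changes (horizontal axis) of 9 of the genes (vertical axis) in the 3 comparisons, with 95% intervals as bars and filled points where the edgeR adjusted p was below 0.05. SLC40A1 is left out because its intervals span more than 5 log2 units. FTH1, FTL and HMOX1 lie to the right in both comparisons with MPTN, and TFRC and IREB2 to the left in both comparisons with WT.

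Groups without overlap were seen for 4 of the 10 genes between MPTN24 and WT, 7 between MPTN and WT and 6 between MPTN and MPTN24. Over all tested genes 38%, 47.5% and 37.8% had groups without overlap in these comparisons, while 23.2%, 36.4% and 14.5% were called. Counts per length, as deposited in FPKM, allow a comparison between the genes. FTL (1800 ± 144 FPKM, mean ± SD, n = 3) and FTH1 (1692 ± 172) were the highest in WT, followed by GPX4 (248 ± 58.5), NCOA4 (81.9 ± 12.6), TFRC (60.5 ± 7.52), SLC39A14 (29.6 ± 3.12), ACSL4 (24.6 ± 4.5), IREB2 (3.85 ± 0.554), HMOX1 (1.91 ± 0.117) and SLC40A1 (0.0301 ± 0.0178). Neighbours whose WT libraries overlapped were FTL and FTH1, NCOA4 and TFRC, and SLC39A14 and ACSL4. In MPTN24 the order was the same, with overlap left for SLC39A14 and ACSL4. In MPTN FTH1 (3551 ± 150 FPKM) came first and overlapped FTL (3263 ± 352), and HMOX1 (3.88 ± 0.49) stood above IREB2 (2.41 ± 0.262) without overlap.

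Ratios within a library do not depend on library scaling; the pairs were chosen after the values were seen. The heavy chain over the light chain in FPKM was 0.908, 0.944 and 0.964 for WT, 0.767, 0.824 and 0.823 for MPTN24, and 1.15, 1.12 and 1.02 for MPTN. The 3 groups did not overlap, with MPTN24 lowest and MPTN highest. The mean log2 ratio was 0.22 lower in MPTN24 and 0.22 higher in MPTN than in WT, and 0.44 higher in MPTN than in MPTN24. FTH1 over TFRC was 23.4, 26.5 and 35.5 for WT, 40.8, 32.0 and 37.8 for MPTN24, and 73.9, 80.6 and 102 for MPTN. All MPTN libraries lay above all others, by a mean of 1.59 log2 units over WT, and MPTN24 overlapped WT. GPX4 over ACSL4 was 9.45, 9.45 and 11.2 for WT, 11.8, 9.69 and 10.2 for MPTN24, and 13.6, 14.5 and 18.9 for MPTN. MPTN again lay above both. No offsets for GC content and length were applied to these ratios. Under those offsets the log2 change of GPX4 between MPTN and WT was 0.12 in place of 0.45. That of ACSL4 was -0.17 in the main fit and at most 0.05 over the 21 alternatives. The ratio under those offsets was not tested. With 3 libraries against 3 the two-sided exact permutation test cannot go below p = 0.1, which every comparison without overlap reached. Adjusted over the 12 tests of 4 ratios, FTL over TFRC included, this exact p became 0.12, so no ratio passed.

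**Figure D3:**
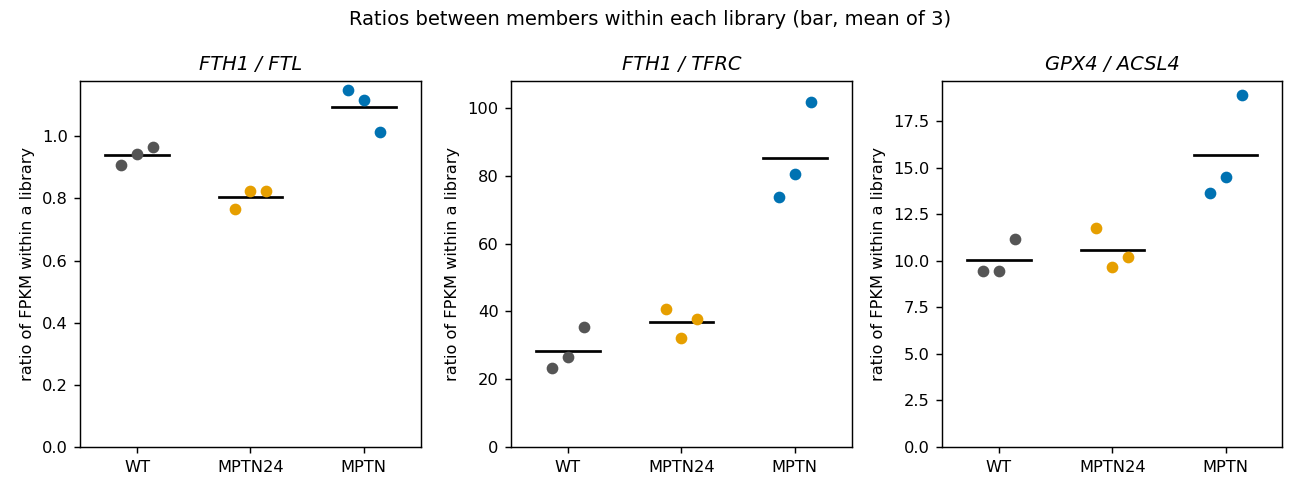
FPKM ratios within each library (vertical axes, from 0) for FTH1 over FTL, FTH1 over TFRC and GPX4 over ACSL4, by group (horizontal axis), with points for replicates 1 to 3 and a bar for the mean. FTH1 over FTL lies below 0.83 in MPTN24 and above 1 in MPTN, and FTH1 over TFRC is at least 73.9 in MPTN against at most 40.8 elsewhere.

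Other genes of iron handling and ferroptosis were followed in 11 lists of 136 genes by role, of which 123 were tested. Between MPTN and WT 33 rose and 24 fell, between MPTN24 and WT 21 rose and 18 fell, and between MPTN and MPTN24 22 rose and 8 fell. That is 46.3%, 31.7% and 24.4% of the tested list genes, beside 36.4%, 23.2% and 14.5% of all tested genes. The counts moved with single libraries. The 24 falls in MPTN were 14 without WT 3 and 15 without MPTN 1. In MPTN24 the 21 rises were 12 without MPTN24 1 and 11 without MPTN24 3. There the 18 falls were 9 when WT 3 or MPTN24 3 was left out and 10 when MPTN24 1 or MPTN24 2 was. Between MPTN and MPTN24 the 22 rises were 14 without MPTN24 2 or MPTN 2 and 11 without MPTN24 3, and the 8 falls ran from 2 without MPTN24 3 to 13 without WT 1, with 5 or fewer without any 1 of MPTN24 1 to 3 or MPTN 1 to 3. Under limma on log2(FPKM + 1) 40 rose and 11 fell between MPTN and WT. Its falls were 2 in place of 6 for cystine and glutathione, 2 in place of 4 for ferroptosis markers and modifiers and 0 in place of 4 for other lipid radical defences, and its rises 10 in place of 6 for lipid substrates. The naming rule picked 32 genes between MPTN and WT, 27 between MPTN24 and WT and 20 between MPTN and MPTN24. Their calls held in all 21 alternatives for 24, 11 and 10 of them, and the changes described below held likewise unless stated.

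Of 9 tested genes of iron uptake and reduction, a list that does not hold the members TFRC and SLC39A14, 5 were higher in MPTN than in WT, 0 lower and 4 did not pass (4 or 5 higher in each alternative; list median 0.53), where 18.3% of all tested genes were higher and 18.1% lower. TFRC fell in this comparison, as given above. LCN2, a secreted protein that binds iron carried by siderophores, rose from 3.85 ± 1.17 CPM in WT to 24.4 ± 4.09 CPM in MPTN (log2 change 2.66 ± 0.21, edgeR adjusted p = 1.08e-06) and was also higher than in MPTN24 (2.13 ± 0.20, edgeR adjusted p = 1.78e-05). CYBRD1, a reductase of ferric iron, rose from 10.7 ± 3.53 to 24.8 ± 2.48 CPM (1.20 ± 0.20, edgeR adjusted p = 0.00039). In the export list of 4 tested genes PROM2, which promotes export of ferritin in vesicles, rose in MPTN24 (0.68 ± 0.11, edgeR adjusted p = 0.000882) and in MPTN (0.78 ± 0.11, edgeR adjusted p = 8.7e-05). HEPHL1, a ferroxidase related to hephaestin, fell in MPTN (-1.04 ± 0.25, edgeR adjusted p = 0.00542), by less without WT 1 (-0.62) and with limma on log2(FPKM + 1) (-0.47). Of 7 tested genes of iron sensing and delivery, 0 were called in MPTN24, where 23.2% of all tested genes were called. In MPTN 1 fell, a call lost without WT 1, MPTN 1, MPTN 2 or MPTN 3.

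Among genes that deliver ferritin to lysosomes, the autophagosome proteins GABARAPL1 and MAP1LC3B rose in MPTN. GABARAPL1 went from 51.6 ± 5.89 CPM in WT and 47.2 ± 1.56 CPM in MPTN24 to 86.8 ± 6.82 CPM in MPTN (0.75 ± 0.10 against WT, edgeR adjusted p = 0.000108), and MAP1LC3B from 71.5 ± 6.76 and 62.2 ± 3.27 to 99.6 ± 1.26 CPM (0.48 ± 0.09, edgeR adjusted p = 0.00134). HERC2, a ligase that marks NCOA4 for degradation, fell (-0.61 ± 0.17, edgeR adjusted p = 0.0106). Of the 7 tested genes of this list 3 rose and 1 fell in MPTN. The falls were 2 without WT 1, and the rises 5 with GC content and length offsets. Over all tested genes 18.3% were higher and 18.1% lower in MPTN than in WT, the shares for each list of this paragraph. In heme turnover 4 of 15 rose and 1 fell in MPTN, the rises being 2 without WT 1, WT 2, MPTN24 3, MPTN 1 or MPTN 2, and in a fit of only these groups. They included BLVRB, a biliverdin reductase (0.68 ± 0.15, edgeR adjusted p = 0.00255), and PPOX, an enzyme of heme synthesis (0.56 ± 0.13, edgeR adjusted p = 0.00406), which were 0.43 and 0.33 with offsets for GC content and length. PPOX also rose in MPTN24 (0.63 ± 0.13, edgeR adjusted p = 0.00427). FLVCR1, a transporter that has been described as a heme exporter, fell (-0.76 ± 0.17, edgeR adjusted p = 0.00281; -0.48 with limma on log2(FPKM + 1)). In the mitochondrial list 3 of 14 rose and 1 fell, and SLC25A37, the mitochondrial iron importer, was 0.48 ± 0.10 higher in MPTN than in WT (edgeR adjusted p = 0.00233). CISD2, an iron-sulfur protein of the outer mitochondrial and reticulum membranes, was 0.38 ± 0.11 higher (edgeR adjusted p = 0.0146), and 0.60 with GC content and length offsets. ISCU, the scaffold on which iron-sulfur clusters are built, was 0.49 ± 0.09 higher in MPTN than in MPTN24 (edgeR adjusted p = 0.00318).

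Cystine and glutathione genes went in both directions. In MPTN 4 of 15 were higher than in WT and 6 lower (median -0.11), beside 18.3% and 18.1% of all tested genes. The falls were 3 without WT 2, MPTN 1, MPTN 2 or MPTN 3 and 2 without WT 3. CHAC1, which degrades glutathione, rose from 8.25 ± 0.644 CPM to 20.6 ± 1.38 CPM in MPTN24 (1.32 ± 0.13, edgeR adjusted p = 6.35e-05) and 37.3 ± 5.54 CPM in MPTN (2.18 ± 0.13, edgeR adjusted p = 9.66e-08). CBS, which opens the route from homocysteine to cysteine, was higher in MPTN24 (1.34 ± 0.24, edgeR adjusted p = 0.00177) and MPTN (1.48 ± 0.24, edgeR adjusted p = 0.000302), at 0.65 and 0.73 with limma on log2(FPKM + 1). SLC7A11, the cystine importer, was at 51.4 ± 10.8 CPM in WT, 30.2 ± 4.13 CPM in MPTN24 and 53.6 ± 10.5 CPM in MPTN. It fell in MPTN24 (-0.77 ± 0.17, edgeR adjusted p = 0.00604; -0.39 with GC content and length offsets) and was higher in MPTN than in MPTN24 (0.83 ± 0.17, edgeR adjusted p = 0.00506). GCLM, a subunit of the enzyme that starts glutathione synthesis, fell in MPTN24 (-0.73 ± 0.13, edgeR adjusted p = 0.00157; -0.44 with those offsets).

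Of 8 selenoprotein synthesis genes 1 rose and 1 fell in MPTN; SEPHS2, which makes the selenium donor, was 0.34 ± 0.09 higher than in WT (edgeR adjusted p = 0.00673), and the fall, of TRIT1, was lost in 14 of 21 alternatives, among them without WT 2, WT 3, MPTN24 1, MPTN24 3, MPTN 1, MPTN 2 or MPTN 3. Both counts were 2 without WT 1. Over all tested genes 18.3% were higher and 18.1% lower in MPTN than in WT. In the list of other lipid radical defences 3 of 14 rose and 4 fell in MPTN, the rises being 1 without MPTN 3 and the falls 2 without WT 2, 0 without WT 3 and 1 without MPTN 1. AKR1C3, a reductase of ketosteroids and lipid carbonyls, rose (0.43 ± 0.11, edgeR adjusted p = 0.00638). Among lipid substrate and peroxidation genes 6 of 19 rose and 4 fell in MPTN. ALOX5, the arachidonate 5-lipoxygenase, rose from 0.616 ± 0.0856 CPM in WT to 3.70 ± 0.33 CPM in MPTN (2.59 ± 0.25, edgeR adjusted p = 5.46e-06), and ALOX12B, the epidermal 12R-lipoxygenase, from 0.858 ± 0.346 to 3.23 ± 0.406 CPM (1.90 ± 0.34, edgeR adjusted p = 0.000679), at 1.00 and 0.93 with limma on log2(FPKM + 1). FAR1 and AGPS, enzymes of ether lipid synthesis, fell in MPTN (-0.83 ± 0.13, edgeR adjusted p = 0.000263, and -0.56 ± 0.12, edgeR adjusted p = 0.00256, the latter -0.31 with GC content and length offsets). In MPTN24 ALOX5 (0.88), ALOX12B (1.18), FAR1 (-0.63) and AGPS (-0.60) were called in the same directions, calls lost in 6, 8, 1 and 0 of 21 alternatives. Of the 19 genes of this list 7 rose and 2 fell in MPTN24, beside 11.1% and 12.1% of all tested genes. The rises were 4 without MPTN24 1 or MPTN24 3. Those not named here held in all 21 alternatives, except 1 that was lost in 3. ELOVL5, an elongase of polyunsaturated fatty acids, was lower in MPTN than in MPTN24 (-0.58 ± 0.10, edgeR adjusted p = 0.00212) and than in WT (-0.52 ± 0.10, edgeR adjusted p = 0.00145).

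Ferroptosis markers and modifiers also split. In MPTN 3 of 11 were higher than in WT and 4 lower, beside 18.3% and 18.1% of all tested genes. In MPTN24 3 were higher and 3 lower, beside 11.1% and 12.1%. PTGS2, the inducible cyclooxygenase and a common marker of ferroptosis, was at 37.9 ± 11 CPM in WT, 11 ± 0.583 CPM in MPTN24 and 19.2 ± 2.71 CPM in MPTN. It fell in MPTN24 (-1.79 ± 0.19, edgeR adjusted p = 9.05e-05) and MPTN (-0.98 ± 0.18, edgeR adjusted p = 0.000875). CDKN1A, the p21 inhibitor of cyclin-dependent kinases, rose in both (0.80 ± 0.12, edgeR adjusted p = 0.000753, and 1.18 ± 0.12, edgeR adjusted p = 1.07e-05). NFE2L2, the transcription factor of the antioxidant response, fell in MPTN24 (-0.85 ± 0.16, edgeR adjusted p = 0.00229) and in MPTN (-0.60 ± 0.16, edgeR adjusted p = 0.00779), the latter a call lost in 2 of 21 alternatives. TFAM, which packages and transcribes mitochondrial DNA, had 88.3 ± 14.9 CPM in the WT libraries and fell in both other groups, to 50.2 ± 4.89 CPM in MPTN24 (-0.81 ± 0.12, edgeR adjusted p = 0.000632) and 49.4 ± 0.532 CPM in MPTN (-0.84 ± 0.12, edgeR adjusted p = 0.000131).

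**Figure D4:**
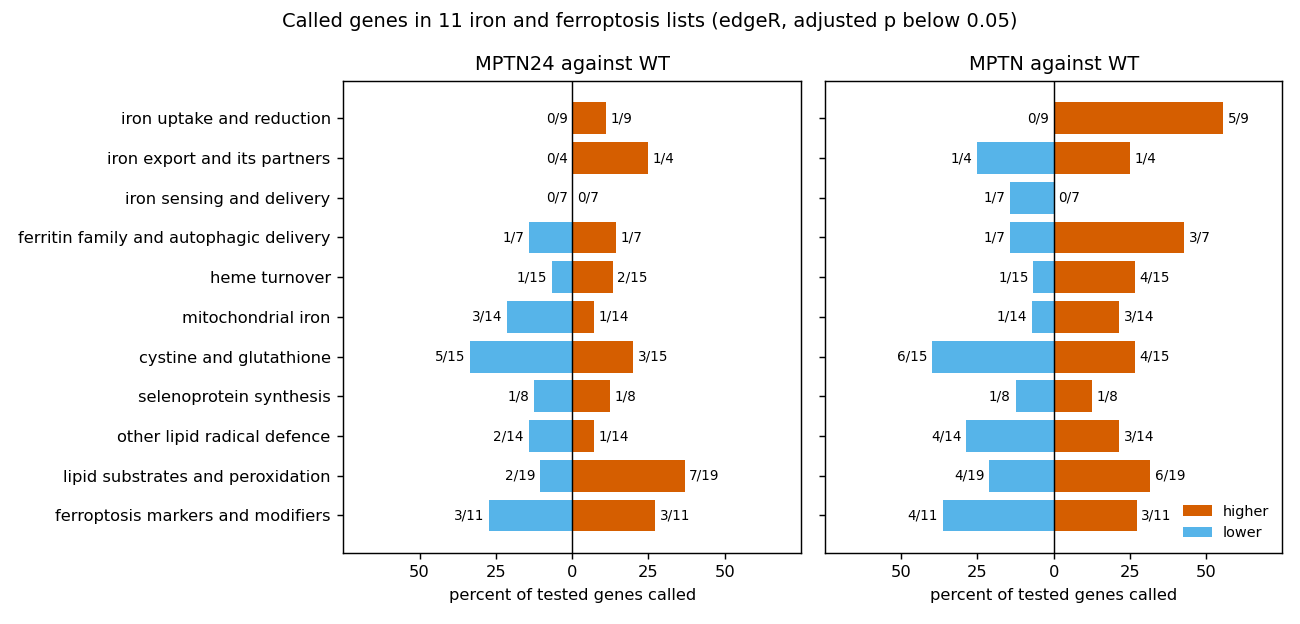
Percent of the tested genes of each list (vertical axis) called higher (right) or lower (left) by edgeR, in MPTN24 and in MPTN against WT (horizontal axes), with counts beside the bars. Iron uptake and reduction has 5 of 9 genes higher and 0 lower in MPTN, beside 18.3% and 18.1% of all tested genes. The cystine and glutathione list has calls in both directions in both panels.

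For each member called in some comparison, the 3 genes with the most similar profile were taken by the root mean square difference of log2 CPM, centred over the 9 libraries, among 10580 genes. FTH1 was followed most closely by PPP1R3F (0.088), B2M (0.109) and IFITM1 (0.129), where its own profile had a root mean square of 0.505. FTL was nearest to TRNP1 (0.067), KATNBL1 (0.069) and SECTM1 (0.071), and TFRC to NDC1 (0.068), SRSF1 (0.078) and QSOX2 (0.078). Nearest to IREB2 were RBM26 (0.048), ZNF106 (0.048) and STRN (0.059), to NCOA4 XRN2 (0.037), BAG4 (0.039) and GID8 (0.044), to HMOX1 RAB28 (0.12), LPCAT1 (0.128) and CTSB (0.131), and to GPX4 PITPNA-AS1 (0.067), MRPL34 (0.068) and RARG (0.08). The likeness is over 9 libraries, which include the differences between groups.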

How the data were processed

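Per the labels' protocols, Trizol was used for extraction and an Illumina TruSeq kit, which does not mark strand, for libraries, each from 1 µg of RNA. The tools were CASAVA 1.8, Trimmomatic, FastQC, HISAT2, StringTie and edgeR with GRCh38, per the submitters' processing notes; order, settings and annotation release are not given in the sources used here. The authors deposited estimated counts, as whole numbers, and a table of FPKM, a unit inferred from its values. Counts of 4 (6716 values) were more frequent than 3 (4548) or 5 (3190), so 1 read pair may often have given 4 counts, which was not tested. Groups followed the sample names. No libraries were identical, and no column of values was left out.

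The filter filterByExpr asked for a minimum count of 10 and a total of 15. The counts were scaled by TMM and fitted over all 9 libraries by edgeR 4.0.16 (robust, R 4.3.3), with 3 contrasts, Benjamini-Hochberg adjustment and a threshold of 0.05. The p-values of ratios came from exact permutation tests. The fit was also run on simulated data with far fewer changed genes than were called here, which does not measure its error in these data. Alternatives were other scalings and filters, each library left out, fits of 2 groups, the replicate number as a block, DESeq2 1.42.0, limma 3.58.1 on log2 values of the deposited FPKM plus 0.1 or 1, counts divided by 4, pseudogene counts added to their parents, and, chosen after seeing the data, offsets for GC content and length (available for 98.9% of tested genes).

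The members and lists were chosen with earlier results of these data known. Named were all members, in each list and comparison up to 2 called rises and 2 called falls with the largest change (mean CPM of 1 or more where higher), and the 3 nearest profiles of called members among genes of at least 5 CPM. No set test was run on the lists. All 136 list genes were matched by symbol. The 13 genes that did not pass the filter were TF, LTF, CP, PROM1, HAMP, HJV, TMPRSS6, FTMT, GPX3, ALOX12, ALOX15, ALOX15B and NOX1.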

Additional observations from a re-analysis of the deposited data

How the results depend on the processing

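Of the 21 alternatives, all kept FTH1, FTL and HMOX1 higher and TFRC and IREB2 lower in MPTN than in WT, FTH1 and FTL higher in MPTN than in MPTN24, and TFRC lower in MPTN24 than in WT. Between MPTN24 and WT 2 members were called, against 1 with upper-quartile scaling, 1 with only the 2 groups fitted, 1 with limma on log2 of FPKM plus 0.1, 1 with limma plus 1, 3 with DESeq2, and 1 to 3 with a library left out. Between MPTN and MPTN24 3 were called, against 5 with only the 2 groups fitted, 5 with GC content and length offsets, and 2 to 4 with a library left out. Between MPTN and WT 7 were called, and 5 to 7 in the alternatives. ACSL4 turned from -0.05 to 0.26 between MPTN24 and WT with GC content and length offsets (edgeR adjusted p = 0.0186); the cause was not tested. Over all genes, calls ran from 1957 to 4821 between MPTN24 and WT, from 4909 to 6668 between MPTN and WT, and from 1310 to 3592 between MPTN and MPTN24, against 3936, 6187 and 2472. SLC40A1 was too low to be given a value in 3 of the 21.

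With the replicate number as a block, 3, 7 and 4 members were called in MPTN24 against WT, MPTN against WT and MPTN against MPTN24. The added calls were NCOA4 (-0.29, edgeR adjusted p = 0.0499) and GPX4 (0.40, edgeR adjusted p = 0.0433). Deviations of same-numbered libraries from their group means correlated by -0.028 to 0.07, with 0 of 9 pairs above 0.1. Of the 9 libraries 4 correlated best with a library of their own number. With 3 libraries a group these values cannot decide whether same-numbered libraries were paired. Depth limits SLC40A1, at 0 to 24 counts a library.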

Other observations

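Promoters, from 250 bases before to 50 after the start, were given by RefSeq (GRCh38.p14) for 7 of the 10 members, and FTH1, HMOX1 and SLC39A14 had no entry. For each of the 7 only 1 listed start was searched, while the shares count every listed promoter, so members and shares are not counted alike. For SLC40A1, NCOA4, IREB2 and GPX4 the 250 bases before that start lay inside the gene as positioned above. Other starts of the members were not searched. On either strand, the antioxidant response element core TGACNNNGC was found in NCOA4, 1 of the 7, and in 13.3% of 35116 promoters. The hypoxia core ACGTG was found in FTL and TFRC and in 21.4% of promoters. The AP-1 motif TGACTCA (4.95% of promoters) and the cyclic AMP response element TGACGTCA (1.85%) were found in none of the 7 searched windows. A match describes the letters in this window and is no evidence of binding.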
